A study of Mus musculus with 12 samples.

Results

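The 7 genes Fasn, Acly, Scd1, Scd2, Thrsp, Me1 and Pcx, which take part in making fatty acids, were followed in mouse skin through the 14 days after a burn. The 7 genes were chosen with earlier results of these data known, and their probe sets were then taken by name. A probe set is the group of probes that reports a transcript on an Affymetrix array. It was taken when its annotation named exactly 1 of these genes. This gave 12 of the 7275 probe sets, for 7 of the 5601 genes named. Fasn, Acly, Thrsp and Me1 had 1 probe set each, Scd1 and Scd2 had 2 each, and Pcx had 4, of which 2 are control probe sets of the manufacturer. Tests were run on 9 of the 12, which cover all 7 genes.

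Total RNA from skin was measured on 12 arrays, 3 for each of 4 times after thermal injury: 0 hours, 2 hours, 3 days and 14 days. Every comparison against 0 hours uses the same 3 arrays at 0 hours. It is not labelled whether skin taken at 0 hours had been burnt, whether samples of 1 time are separate mice, or what strain, sex and age the mice had. The p-values therefore rest on the spread among these arrays, part of which could be technical.

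As background, fatty acid synthesis begins with citrate exported from mitochondria. ATP citrate lyase (Acly) splits citrate into acetyl-CoA, pyruvate carboxylase (Pcx) refills the oxaloacetate from which mitochondria make citrate, and malic enzyme (Me1) supplies NADPH. Fatty acid synthase (Fasn) builds palmitate, and the stearoyl-CoA desaturases Scd1 and Scd2 place a double bond in the saturated chain. Thrsp, also called Spot 14, is a thyroid hormone responsive protein that promotes lipogenesis. In skin, fatty acids are made in fat cells, in sebaceous glands and in the epidermis, and Scd1 is known for its part in the sebaceous gland.

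Upstream sequence was found in the RefSeq promoter table (build GRCm38.p6) for 5 of the 7 genes, and Scd1 and Scd2 were not among them. The 250 bases before an annotated transcript start are printed for Fasn and Thrsp, the members with the largest decreases at 14 days, and for Acly, the member that fell at all 3 later times. The Fasn window lies at chr11:120824548-120824797, the Thrsp window at chr7:97417551-97417800 and the Acly window at chr11:100528001-100528250, all on the minus strand. The Fasn start used is one inside the annotated gene, and the other windows end at the gene's outermost start. Capitals mark CCAAT, the motif that NF-Y is known to bind, and GGGCGG, which Sp1 is known to bind, each read in either direction.
Fasn: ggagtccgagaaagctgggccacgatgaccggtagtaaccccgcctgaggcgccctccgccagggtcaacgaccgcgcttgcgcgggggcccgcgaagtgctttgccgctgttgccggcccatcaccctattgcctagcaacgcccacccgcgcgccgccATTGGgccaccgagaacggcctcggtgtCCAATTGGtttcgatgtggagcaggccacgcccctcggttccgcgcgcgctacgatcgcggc
Thrsp: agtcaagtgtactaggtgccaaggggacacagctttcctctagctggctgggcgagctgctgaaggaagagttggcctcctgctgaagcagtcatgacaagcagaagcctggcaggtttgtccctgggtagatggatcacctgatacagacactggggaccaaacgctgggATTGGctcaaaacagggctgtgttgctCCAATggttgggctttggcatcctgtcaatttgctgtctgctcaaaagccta
Acly: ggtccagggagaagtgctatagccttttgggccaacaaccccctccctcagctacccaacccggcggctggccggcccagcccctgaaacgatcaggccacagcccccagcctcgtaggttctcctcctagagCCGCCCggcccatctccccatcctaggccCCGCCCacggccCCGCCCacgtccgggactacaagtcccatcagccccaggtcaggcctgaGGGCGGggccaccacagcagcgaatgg

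CCAAT occurred 3 times in the Fasn window, within 90 bases of the start, and the 2 copies nearest the start overlap. It occurred 2 times in the Thrsp window, at positions -79 to -75 and -52 to -48, and not in the Acly window. GGGCGG occurred 4 times in the Acly window and not in those of Fasn or Thrsp. In the windows at the outermost start, Me1 held GGGCGG 3 times, and Pcx held CCAAT 3 times and GGGCGG 1 time. Of all 32851 promoters of this length in the table, 33.8% held CCAAT and 32.7% held GGGCGG. The motifs CACGTG, an E-box found in 6.02% of promoters, and TCACNCCAC, a sterol response element core found in 1.05%, were also searched on both strands. CACGTG occurred 1 time, in the Pcx window, and TCACNCCAC in none of the members' windows. A match describes letters in a window and not a bound site.

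The deposited signals have array medians between 448 and 496 and are on an arbitrary scale, so the level of a probe set can be compared between arrays but not with that of another probe set. Values were raised to a floor of 225 and taken to log2, and 4216 probe sets that exceeded 476 on at least 3 arrays were tested with limma across the 4 times. A change is named as called where its p, adjusted by Benjamini-Hochberg over these 4216, was under 0.05. Of the 9 tested members, 8 exceeded the filter value on all 12 arrays, and Pcx 93308_s_at did so on 7. Within a time, arrays correlated at a Spearman rho of 0.875 to 0.960 over all probe sets except controls, tested or not. Replicate 3 at 0 hours had the lowest mean rho with the other arrays, 0.851. For the members, however, replicate 1 at 0 hours and replicate 3 at 3 days stood apart, and called changes that rest on them are given with and without them.

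The members varied widely at 0 hours. The highest of the 3 arrays exceeded the lowest by 5.08-fold for Thrsp, 3.63-fold for Pcx 93308_s_at, 3.00-fold for Fasn and 2.61-fold for Me1. Scd1 varied 2.13-fold and 2.21-fold in its 2 probe sets, Scd2 1.59-fold and 1.49-fold, and Acly 1.57-fold. The median over the 9 tested members was 2.21-fold, beside 1.53-fold over all tested probe sets, and 4 of the 9 lay above the 90th percentile of all tested probe sets, 2.30-fold. Replicate 1 was the highest of the 3 arrays for 8 of the 9 members, and for 31.1% of all tested probe sets. The exception was Scd2 95758_at. The marker signal of fat cells moved with this: its mean log2 level was 11.2 in replicate 1, against 10.2 and 10.1 in replicates 2 and 3. That of skeletal muscle was 13.7, against 12.6 and 12.5. Every other marker list was lowest in replicate 1. Its levels there were 8.24 for hair follicle, against 9.35 and 9.02, and 11.70 for keratinocytes, against 12.26 and 11.76. They were 9.64 for sebaceous gland, against 9.82 and 9.69, 9.18 for macrophages, against 9.37 and 9.40, and 12.30 for fibroblasts, against 12.41 and 12.40. The part of these cell types in the members' spread was not tested.

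A like spread was present at 3 days, where the median range of the members was 2.49-fold, beside 1.34-fold over all tested probe sets. Replicate 1 was the highest array for all 9 members, as for 40.3% of all tested probe sets. Replicate 3 was the lowest for all 9, as for 38.5% of all tested probe sets. Its mean log2 marker level was 9.75 for fat cells, against 10.6 and 10.4 in replicates 1 and 2, and 11.3 for skeletal muscle, against 12.18 and 11.96. Sebaceous gland, keratinocyte and hair follicle markers were also lowest there. Macrophage markers were highest there, at 11.14 against 10.54 and 10.74, as were fibroblast markers, at 12.42 against 12.20 and 12.29. At 2 hours the members' median range was 1.27-fold, beside 1.31-fold over all, and at 14 days it was 1.22-fold, beside 1.31-fold. At 14 days none of the 9 members lay above the 90th percentile of all tested probe sets, and at 2 hours 2 did.

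**Figure D1:**
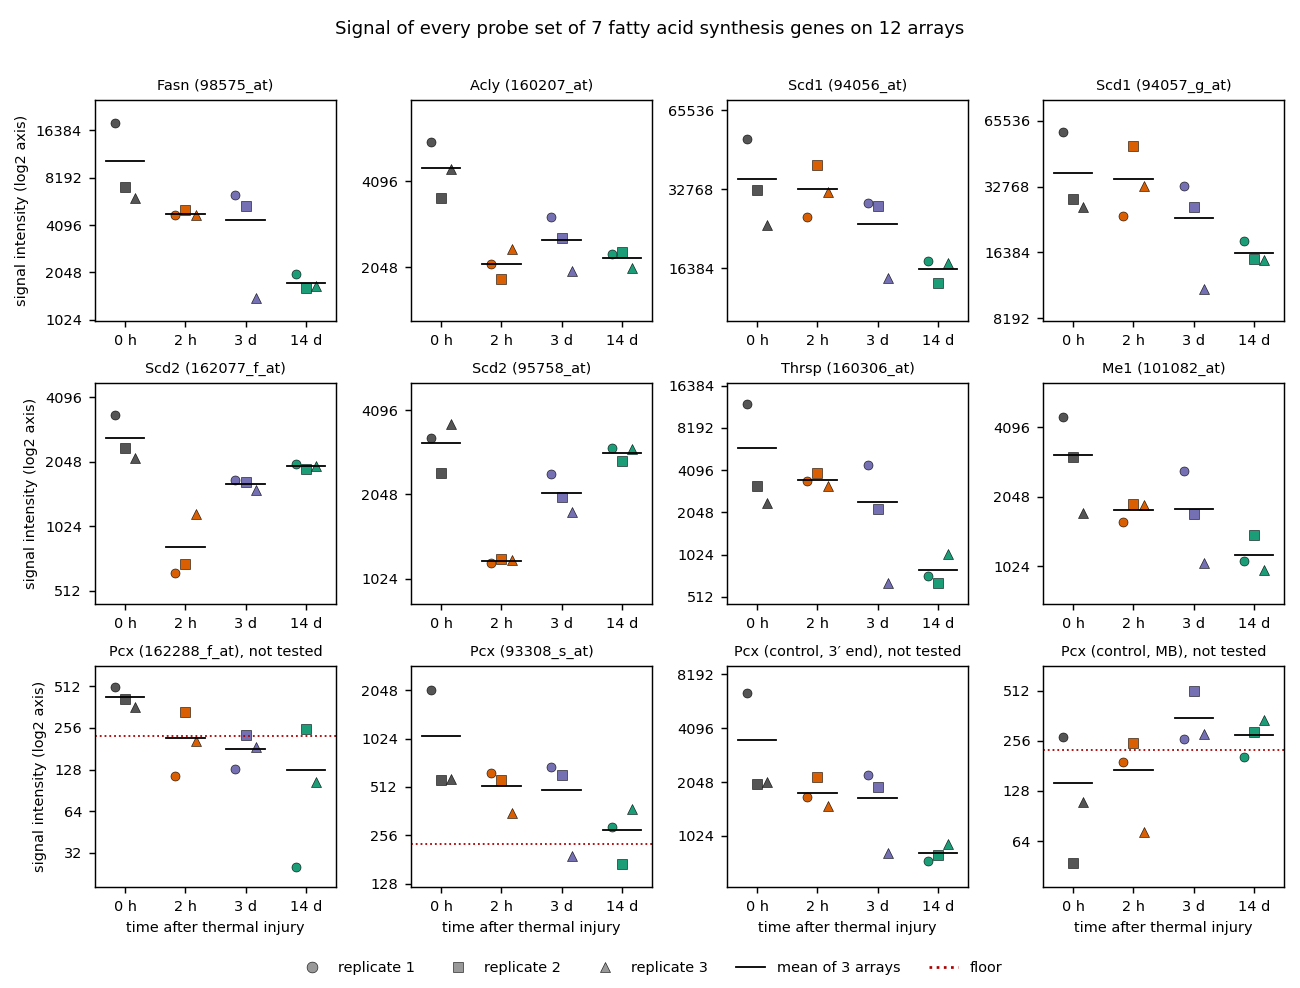
Deposited signal (log axis, arbitrary units) of every member probe set on each of the 12 arrays, by time after injury; each point is 1 array, lines are means of 3 and the dotted line is the floor. Replicate 1 at 0 hours is the highest point of its time for 8 of the 9 tested members.

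**Figure D2:**
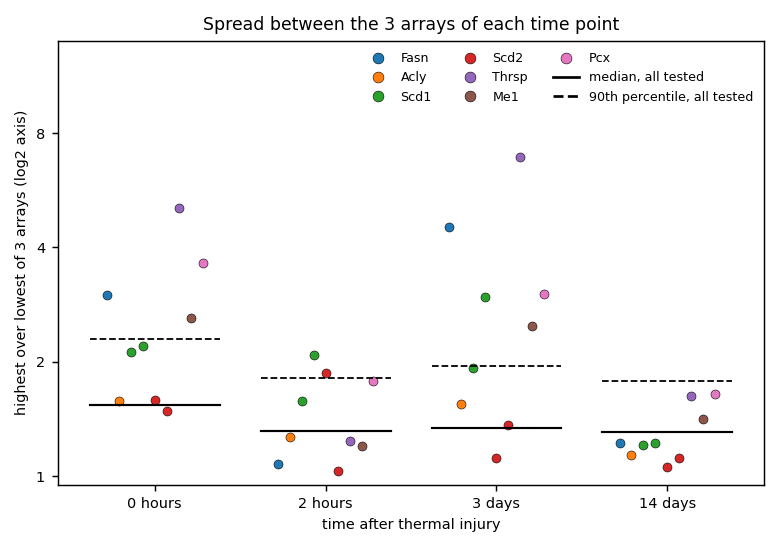
Highest over lowest array within each time for the tested members (points), on a log2 axis, beside the median (solid line) and 90th percentile (dashed line) of all 4216 tested probe sets. Thrsp, at 5.08-fold, is the widest member at 0 hours, and no member exceeds 1.65-fold at 14 days.

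Over the whole time course, 6 of the 9 tested members were called by limma's F-test across the 4 times, beside 21.4% of all tested probe sets. These were Acly, Fasn, Thrsp, both Scd2 probe sets and Scd1 94056_at. Mean signal was lowest at 2 hours for Scd2 and at 14 days for Fasn, Thrsp, Me1, Pcx and Scd1. Acly was lower than at 0 hours at each later time.

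Acly, the enzyme that supplies acetyl-CoA, had a signal of 5626, 3576 and 4514 at 0 hours, 2109, 1864 and 2368 at 2 hours, 3080, 2598 and 1992 at 3 days, and 2284, 2323 and 2041 at 14 days. Every array after 0 hours lay below every array at 0 hours. On the log2 scale Acly fell by 1.10 ± 0.22 at 2 hours against 0 hours (SE, n = 3 each, limma adjusted p = 0.00983), by 0.84 ± 0.22 at 3 days (adjusted p = 0.0201) and by 1.02 ± 0.22 at 14 days (adjusted p = 0.00959). These are decreases of 2.14-fold, 1.79-fold and 2.03-fold. The differences between the later times were 0.26 for 3 days against 2 hours, 0.07 for 14 days against 2 hours and -0.19 for 14 days against 3 days, none of them called. With replicate 1 at 0 hours left out, the changes were -0.93 (adjusted p = 0.0343) at 2 hours and -0.86 (adjusted p = 0.0439) at 14 days, and at 3 days -0.67 was no longer called (adjusted p = 0.0775). The 3 days call also ended without replicate 2 at 3 days, at -0.86 (adjusted p = 0.0529), and without replicate 3, at -0.67 (adjusted p = 0.113). It ended too without the filter on low values, and with only the arrays of 3 days and 0 hours fitted. With only the arrays of 2 hours and 0 hours fitted, the 2 hours call ended (limma adjusted p at most 0.0583). In bulk skin RNA, fewer cells of a type and less RNA per cell cannot be told apart, for Acly and for every member.

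Fasn, which builds the chain, had a signal of 18164, 7115 and 6062 at 0 hours and of 4743, 5079 and 4716 at 2 hours. It had 6402, 5379 and 1412 at 3 days and 1989, 1627 and 1681 at 14 days. The 3 arrays at 14 days lay below every array at 0 hours and at 2 hours, and replicate 3 at 3 days lay below them. Fasn fell by 2.39 ± 0.47 on the log2 scale at 14 days against 0 hours (SE, n = 3 each, limma adjusted p = 0.00787), a 5.24-fold decrease. Its changes at 2 hours, -0.93 ± 0.47 (adjusted p = 0.267), and at 3 days, -1.34 ± 0.47 (adjusted p = 0.0742), were not called, although the 2 hours arrays did not overlap with those at 0 hours. In order of mean level Fasn ran 0 hours, 2 hours, 3 days, 14 days, and no neighbours in that order differed by a called change. Leaving out replicate 1 at 0 hours gave a 14 days change of -1.90 (adjusted p = 0.0321), and over all 12 arrays left out in turn the change was called each time, between -2.69 and -1.90. At 14 days against 2 hours the log2 change of -1.46 ± 0.47 was not called (adjusted p = 0.0570), although those arrays did not overlap either.

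Thrsp, the lipogenic regulator, had the widest range at 0 hours, with signals of 12167, 3137 and 2395. It had 3423, 3889 and 3145 at 2 hours, 4437, 2182 and 643 at 3 days, and 715, 638 and 1034 at 14 days. The 14 days arrays lay below all arrays at 0 hours and 2 hours, and the 2 hours arrays lay between the highest and lowest array at 0 hours. Thrsp fell by 2.53 ± 0.61 on the log2 scale at 14 days against 0 hours (SE, n = 3 each, limma adjusted p = 0.0175), a 5.79-fold decrease. Against 2 hours it fell by 2.16 ± 0.61 at 14 days (adjusted p = 0.0313). At 2 hours the change against 0 hours was -0.38 ± 0.61 (adjusted p = 0.766), and without replicate 1 at 0 hours it had the opposite sign, 0.34. Without that replicate the 14 days change against 0 hours was -1.82 and no longer called (adjusted p = 0.0688). That call also ended without replicate 1 at 14 days, at -2.47 (adjusted p = 0.0639), and without replicate 2, at -2.39 (adjusted p = 0.0579). The call against 2 hours ended without any 1 array of 2 hours or without replicate 1 or 2 at 14 days, at -2.23 to -2.01 (adjusted p = 0.0669 to 0.101).

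Me1, a source of NADPH, had signals of 1075, 1394 and 984 at 14 days, against 4537, 3047 and 1736 at 0 hours. Its signals were 1588, 1906 and 1880 at 2 hours and 2639, 1724 and 1060 at 3 days. Again the 14 days arrays did not overlap with those at 0 hours, while the 2 hours and 3 days arrays did. Me1 fell by 1.34 ± 0.34 on the log2 scale at 14 days (SE, n = 3 each, limma adjusted p = 0.0227), or 2.53-fold. The call ended without replicate 1 at 0 hours, at -1.01 (adjusted p = 0.0940), without replicate 1 at 14 days, at -1.30 (adjusted p = 0.0818), and without replicate 3 at 14 days, at -1.24 (adjusted p = 0.0679).

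Pcx, which refills oxaloacetate, was read by 4 probe sets that did not move alike. Probe set 93308_s_at had signals of 288, 171 and 371 at 14 days, against 2058, 566 and 571 at 0 hours, with 630, 564 and 355 at 2 hours and 678, 604 and 192 at 3 days. One array at 3 days and one at 14 days were under the floor, and were set to it, so the fitted changes depend on the floor. At 14 days it fell by 1.60 ± 0.48 on the log2 scale (SE, n = 3 each, limma adjusted p = 0.0449), and without replicate 1 at 0 hours by 0.98, which was not called (adjusted p = 0.165). The call also ended without any 1 array of 2 hours or 14 days, or without replicate 2 at 3 days, at -1.78 to -1.42 (adjusted p = 0.0529 to 0.133). With the floor at the 10th percentile the change was -1.73 (adjusted p = 0.0530), and at the 40th percentile -1.26 (adjusted p = 0.0520), neither called.

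The control probe set at the 3′ end of the Pcx transcript had signals of 743, 806 and 919 at 14 days, against 6480, 1987 and 2045 at 0 hours, with 1682, 2180 and 1499 at 2 hours and 2233, 1921 and 822 at 3 days. As a control it was left out of the tests. When control probe sets were kept, it fell by 1.86 ± 0.42 at 14 days (SE, n = 3 each, limma adjusted p = 0.0138). Over the 12 arrays its log2 signal followed that of 93308_s_at with a Pearson r of 0.949, a description over arrays that share their times. Probe set 162288_f_at was dim, above the filter value on 1 array, with signals of 25.3, 250 and 104 at 14 days and 509, 412 and 364 at 0 hours. It had 114, 333 and 207 at 2 hours and 129, 227 and 187 at 3 days. Tested without a filter, its fitted 14 days change was -0.86 (limma adjusted p = 0.0314), with 2 of the 3 arrays at 14 days set to the floor. The MB control probe set had signals of 271, 47.6 and 109 at 0 hours, 191, 247 and 72.8 at 2 hours, 262, 510 and 283 at 3 days, and 205, 290 and 341 at 14 days, mostly near the floor. It did not follow the other Pcx probe sets, with a Pearson r between -0.22 and -0.03.

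Scd1, the main desaturase of skin, was read by 2 probe sets that followed each other with a Pearson r of 0.968 over the 12 arrays. Probe set 94056_at had 51131, 32461 and 24041 at 0 hours, 25710, 40622 and 32025 at 2 hours, 29169, 28364 and 15104 at 3 days, and 17439, 14463 and 17115 at 14 days. Probe set 94057_g_at had 58022, 28814 and 26294 at 0 hours, 23924, 49965 and 32877 at 2 hours, 33013, 26355 and 11154 at 3 days, and 18461, 15316 and 15123 at 14 days. In both, the 2 hours arrays lay within the range at 0 hours apart from the lowest array of 94057_g_at, and all 14 days arrays lay below all arrays at 0 hours and 2 hours. Scd1 94056_at fell by 1.07 ± 0.30 on the log2 scale at 14 days against 0 hours (SE, n = 3 each, limma adjusted p = 0.0340) and by 0.98 ± 0.30 against 2 hours (adjusted p = 0.0440). Scd1 94057_g_at gave near values, -1.12 ± 0.39 and -1.07 ± 0.39, that were not called (adjusted p = 0.0737 and 0.0868). The 14 days call of 94056_at against 0 hours ended without replicate 1 at 0 hours, at -0.78 (adjusted p = 0.135), without replicate 2 at 0 hours, at -1.11 (adjusted p = 0.0503), and without any 1 array of 14 days, at -1.12 to -0.98 (adjusted p = 0.0668 to 0.104). Its call against 2 hours ended without replicate 2 at 0 hours, 2 hours or 3 days, replicate 3 at 2 hours or any 1 array of 14 days, at -1.03 to -0.82 (adjusted p = 0.0533 to 0.167).

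Scd2, the desaturase found in many tissues, was lowest at 2 hours. Probe set 95758_at had signals of 3253, 2451 and 3645 at 0 hours and of 1165, 1204 and 1196 at 2 hours. It had 2429, 2011 and 1778 at 3 days and 2998, 2689 and 2967 at 14 days. Probe set 162077_f_at had 3389, 2370 and 2131 at 0 hours, 621, 679 and 1161 at 2 hours, 1686, 1639 and 1512 at 3 days, and 1994, 1888 and 1959 at 14 days. In both, the 3 arrays at 2 hours lay below every other array. Scd2 95758_at fell by 1.37 ± 0.19 on the log2 scale at 2 hours against 0 hours and 162077_f_at by 1.71 ± 0.24 (SE, n = 3 each, limma adjusted p = 0.00107 for both), decreases of 2.59-fold and 3.27-fold. Against 2 hours, 95758_at rose by 0.79 ± 0.19 at 3 days (adjusted p = 0.0199) and by 1.28 ± 0.19 at 14 days (adjusted p = 0.000901). The values for 162077_f_at were 1.03 ± 0.24 (adjusted p = 0.0155) and 1.30 ± 0.24 (adjusted p = 0.00340). At 14 days against 0 hours the changes were -0.09 ± 0.19 and -0.40 ± 0.24, neither called (adjusted p = 0.789 and 0.287). The fall at 2 hours and the rise at 14 days against 2 hours were called with each of the 12 arrays left out in turn, and without replicate 1 at 0 hours the fall was -1.33 and -1.51. The 3 days rise against 2 hours was not called without replicate 1 or 2 at 2 hours or replicate 2 at 3 days in either probe set (adjusted p = 0.0568 to 0.0768), nor, for 95758_at, without replicate 3 at 2 hours (adjusted p = 0.0706) or replicate 1 at 3 days (adjusted p = 0.0548).

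**Figure D3:**
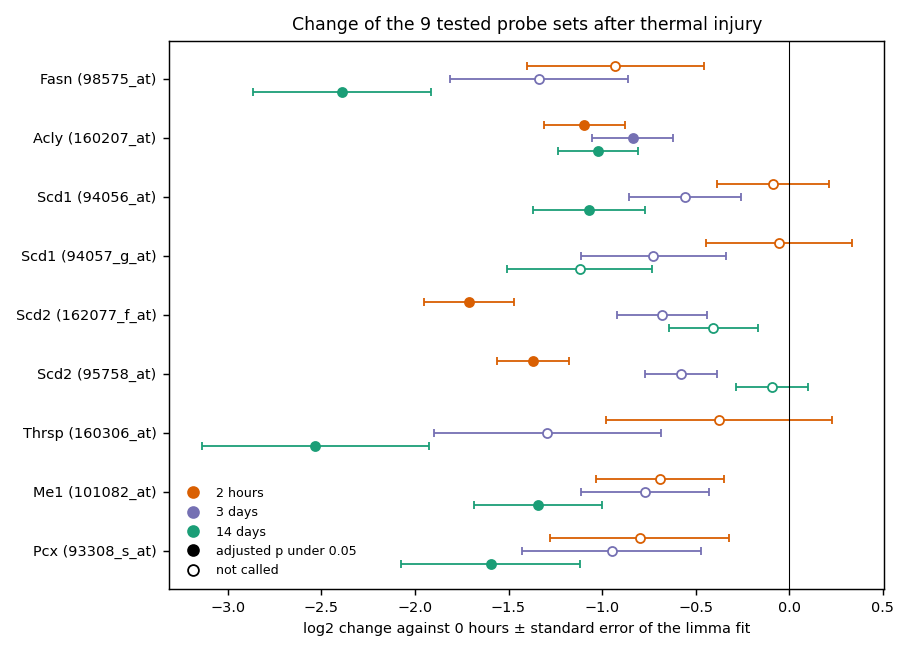
Log2 change (limma estimate, bars are SE, n = 3 arrays a time) of the 9 tested member probe sets at 2 hours, 3 days and 14 days against 0 hours; filled points have an adjusted p under 0.05. Both Scd2 probe sets are lowest at 2 hours, and Fasn and Thrsp are lowest at 14 days.

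Counted together, 3 of the 9 tested members fell at 2 hours against 0 hours, Acly and both Scd2 probe sets, where 1.71% of all tested probe sets fell. At 3 days 1 fell, Acly, beside 4.58%. At 14 days 6 fell, namely Fasn, Thrsp, Acly, Me1, Pcx and Scd1 94056_at, beside 3.75%. By the brightest probe set of each of the 7 genes, 2 genes fell at 2 hours, 1 at 3 days and 5 at 14 days. Scd1 was not among these. No member rose at 2 hours, 3 days or 14 days against 0 hours, where 3.8%, 8.92% and 7.47% of all tested probe sets rose. The median log2 change of the members was -0.80, -0.77 and -1.12 at 2 hours, 3 days and 14 days, beside 0.05, 0.03 and 0.06 over all tested probe sets. Because the members were chosen with earlier results of these data known, these counts and shares are a description and no test of the list. When replicate 1 at 0 hours was left out, 3 members were called at 2 hours, 0 at 3 days and 2 at 14 days, Fasn and Acly. The falls called among all tested probe sets were then 54, 92 and 43, where all 12 arrays gave 72, 193 and 158. Without the filter on low values, the 14 days calls of Fasn (limma adjusted p = 0.0592), Thrsp (adjusted p = 0.103), Me1 (adjusted p = 0.101), Pcx 93308_s_at (adjusted p = 0.169) and Scd1 94056_at (adjusted p = 0.115) ended. With only the arrays of 14 days and 0 hours fitted, those of Me1 (adjusted p = 0.0560), Pcx 93308_s_at (adjusted p = 0.0831) and Scd1 94056_at (adjusted p = 0.0632) ended. Leaving out replicate 3 at 3 days gave 3, 0 and 7, and leaving out 1 array of 14 days gave 2 or 3 at 14 days. Without replicate 3 at 0 hours the counts were 3, 2 and 6, and without replicate 1 at 3 days 5 were called at 3 days.

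Counted by overlap, 4 of the 9 had all 3 arrays at 2 hours below all 3 at 0 hours, beside 9.63% of all tested probe sets, and 3 did so at 3 days, beside 12%. At 14 days 8 of the 9 did so, beside 11.9%, and the exception was Scd2 95758_at. At 14 days against 2 hours 5 of the 9 lay below without overlap, namely Fasn, Thrsp, Me1 and both Scd1 probe sets, beside 20%. Both Scd2 probe sets lay above without overlap at 3 days against 2 hours, at 14 days against 2 hours and at 14 days against 3 days, beside 16.6%, 19.5% and 10.9%. With 3 arrays against 3, an exact permutation test of 1 probe set cannot give a p below 0.1. Between the later times, 2 members rose at 3 days against 2 hours, both Scd2 probe sets, where 5.83% of all tested probe sets rose. At 14 days against 2 hours the same 2 rose, where 7.14% rose, and 2 fell, Thrsp and Scd1 94056_at, where 5.62% fell. At 14 days against 3 days limma called 0 of the 9, beside 3.27% of all tested probe sets, and 2 had an unadjusted p under 0.05. These 2 were Fasn, with a log2 change of -1.05, and Scd2 95758_at, with 0.49.

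The courses of the desaturases were compared within each array, as the mean log2 signal of the Scd1 probe sets minus that of the Scd2 probe sets. The comparison was chosen after the values were seen and is given as a description, with no test. The difference itself has no meaning as a ratio of transcripts, since the probe sets differ in brightness, but its changes between times do not depend on that. It averaged 3.62 ± 0.43 in the 0 hours arrays, 5.10 ± 0.47 in the 2 hours arrays, 3.61 ± 0.54 in the 3 days arrays and 2.78 ± 0.08 in the 14 days arrays (SD, n = 3 each). The arrays at 2 hours, from 4.78 to 5.64, lay above all others, and those at 14 days, from 2.72 to 2.88, lay below all others. Without replicate 1 at 0 hours and replicate 3 at 3 days, the mean was 3.42 at 0 hours and 3.93 at 3 days (n = 2 each). Against 0 hours, the shift was 1.47 at 2 hours and -0.85 at 14 days on the log2 scale.

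**Figure D4:**
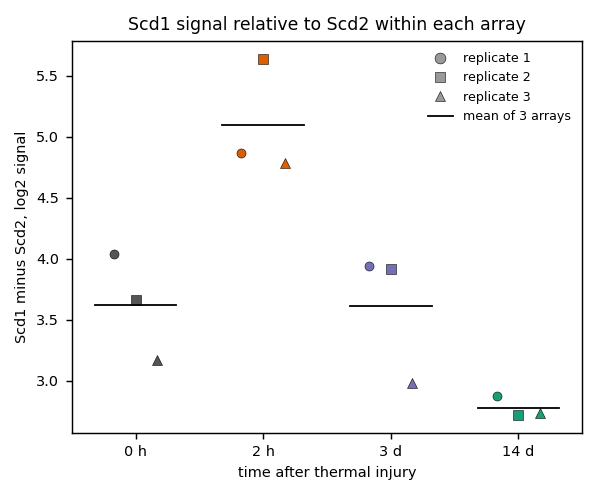
Mean log2 signal of Scd1 minus that of Scd2 on each array (points), with the mean of each time (line). The 3 arrays at 2 hours lie between 4.78 and 5.64 and those at 14 days between 2.72 and 2.88.

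Other enzymes of fatty acid synthesis, elongation and desaturation were mostly not called. Of 32 genes listed, 12 had a probe set and 9 were tested. Mid1ip1, the partner protein of Thrsp, rose by 0.76 ± 0.18 on the log2 scale at 2 hours against 0 hours (SE, n = 3 each, limma adjusted p = 0.0264). Its signals were 1820, 2320 and 2170 at 2 hours, against 1155, 1344 and 1227 at 0 hours. None of the 9 was called at 3 days or 14 days, and the median change at 14 days was 0.05. Slc25a1, the carrier that exports citrate for Acly, was not called in its brightest probe set at 2 hours, at -1.11 ± 0.33 (adjusted p = 0.0621). Its other probe set 162358_i_at fell by 1.65 ± 0.35 at 2 hours (adjusted p = 0.0143) and by 1.53 ± 0.35 at 14 days (adjusted p = 0.0136). Among 9 tested genes of NADPH and citrate supply, Pgd of the pentose phosphate pathway fell by 1.05 ± 0.27 at 2 hours (adjusted p = 0.0390) and Idh2 fell by 0.83 ± 0.24 at 3 days (adjusted p = 0.0384). None of the 9 was called at 14 days, where their median was -0.53.

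Of 9 tested regulators of lipogenesis, Cebpd, a transcription factor of early fat cell formation, rose by 1.78 ± 0.28 on the log2 scale at 2 hours against 0 hours (SE, n = 3 each, limma adjusted p = 0.00243) and fell by 1.00 ± 0.28 at 14 days (adjusted p = 0.0351). Rxra, the partner of several lipid-sensing nuclear receptors, rose by 1.30 ± 0.24 at 3 days and by 1.59 ± 0.24 at 14 days (adjusted p = 0.00344 and 0.00172). Thra, the thyroid hormone receptor alpha, fell by 0.72 ± 0.20 at 2 hours (adjusted p = 0.0481). Of 9 tested genes of triglyceride and phospholipid synthesis, Pcyt2, which acts in making phosphatidylethanolamine, fell at all 3 times, by 1.55, 1.13 and 0.96 (adjusted p = 0.000562, 0.00218 and 0.00889). Lpcat3 fell at 14 days against 0 hours, Gpam fell at 3 days against 2 hours, and Gpam, Chpt1 and Lpin1 fell at 14 days against 2 hours. Of 12 tested sterol synthesis and uptake genes, 2 fell at 2 hours, Nsdhl by 1.04 ± 0.24 (adjusted p = 0.0243) and Tm7sf2 by 0.80 ± 0.22 (adjusted p = 0.04995), and none was called at 3 days or 14 days against 0 hours. Mvd and Mvk, enzymes of the mevalonate pathway, rose by 0.88 and 0.86 at 14 days against 2 hours (adjusted p = 0.0318 and 0.0135). Of 15 tested fatty acid oxidation genes, 1 was called against 0 hours, Eci2, which rose at all 3 times by 1.21, 0.68 and 0.63 (adjusted p = 0.00164, 0.0230 and 0.0360). Against 2 hours, Acadm and Eci1 fell by 1.27 and 0.95 at 3 days (adjusted p = 0.0382 and 0.0345), and Acadl and Eci1 fell by 0.88 each at 14 days (adjusted p = 0.0449 and 0.0390).

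Markers of cell types that make fatty acids gave the following levels beside these changes. Of 20 fat cell markers, 17 had a probe set and 14 were tested, with Car3 and Cebpa the brightest and Aqp7 at the floor on all arrays. Their summed signal ranged from 48089 to 102790 at 0 hours, 68936 to 91004 at 2 hours, 29338 to 61300 at 3 days and 30763 to 52897 at 14 days. None of the 14 was called at any time against 0 hours, with median log2 changes of 0.19, -0.39 and -0.65. At 14 days against 2 hours 4 fell, Cidec, Retn, Lpl and Adipoq. Of 16 sebaceous gland markers 6 had a probe set and 4 were tested, of which Fabp5 and Plin2 rose at 3 days against 0 hours and Fabp5 rose at 14 days. Awat1, Awat2, Soat1 and Krt79 were among the listed markers with no probe set. Whether the signal of Fabp5 and Plin2 came from the gland was not tested. Against 2 hours, Fabp5 and Plin2 rose at 3 days and Fabp5 rose at 14 days, while Mgst1 fell by 0.87 at 14 days (limma adjusted p = 0.0325). Plin2 fell by 0.96 at 14 days against 3 days (adjusted p = 0.0248). For the epidermis, 10 of 14 keratinocyte markers had a probe set, and all 10 were tested. Their summed signal was 63393 to 82461 at 0 hours and 78336 to 81669 at 2 hours. It was 63909 to 74588 at 3 days and 99418 to 131039.5 at 14 days. Against 0 hours, Col17a1 rose at 2 hours, Sfn at 3 days, and Flg, Krt1 and Sfn at 14 days. Against 2 hours, Krt1 rose at both times and Flg at 14 days, while Trp63 fell at 3 days and Col17a1 at 14 days. The part of these cells in the members' changes was not tested.

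Other measures also moved with time. Of 21 tested skeletal muscle markers, led in signal by Atp2a1 and Myl1, 2 fell at 2 hours against 0 hours, Tnnt1 and Tnni1, 14 at 3 days and 11 at 14 days. Their summed signal ranged from 347161 to 572207 at 0 hours, 306792 to 351921 at 2 hours, 120497 to 267490 at 3 days and 170066 to 245957 at 14 days. Of 15 tested monocyte and macrophage markers 14 rose at 3 days against 0 hours. Of 8 tested hair follicle markers, S100a3 and Krt71 fell at 2 hours and at 3 days against 0 hours. At 14 days 6 of the 8 rose, S100a3 and Krt71 among them. The log2 ratio of the 3′ over the 5′ Gapdh control probe set is a measure of RNA quality, and a higher ratio marks poorer RNA. It averaged 1.99 ± 0.29 in the 0 hours arrays, 1.54 ± 0.46 in the 2 hours arrays, 0.52 ± 0.50 in the 3 days arrays and 0.21 ± 0.08 in the 14 days arrays (SD, n = 3 each). The mean ratio was thus highest at 0 hours, the reference time, and lowest at 14 days. With this ratio as a covariate none of the 9 members was called at 14 days against 0 hours, and Fasn had a log2 change of -1.44 (limma adjusted p = 0.960). With the mean level of the muscle markers as the covariate none was called either, and Fasn had -0.99 (adjusted p = 0.249). The loss was not particular to the members: of all 4216 tested probe sets, 2 were called with the Gapdh covariate and 38 with the muscle covariate, where 473 were called with neither. Both Scd2 probe sets were called at 2 hours under either covariate, while Acly was called with the Gapdh covariate and not with the muscle covariate. Each covariate moves with time, so its share cannot be told apart from that of time by these fits.

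**Figure D5:**
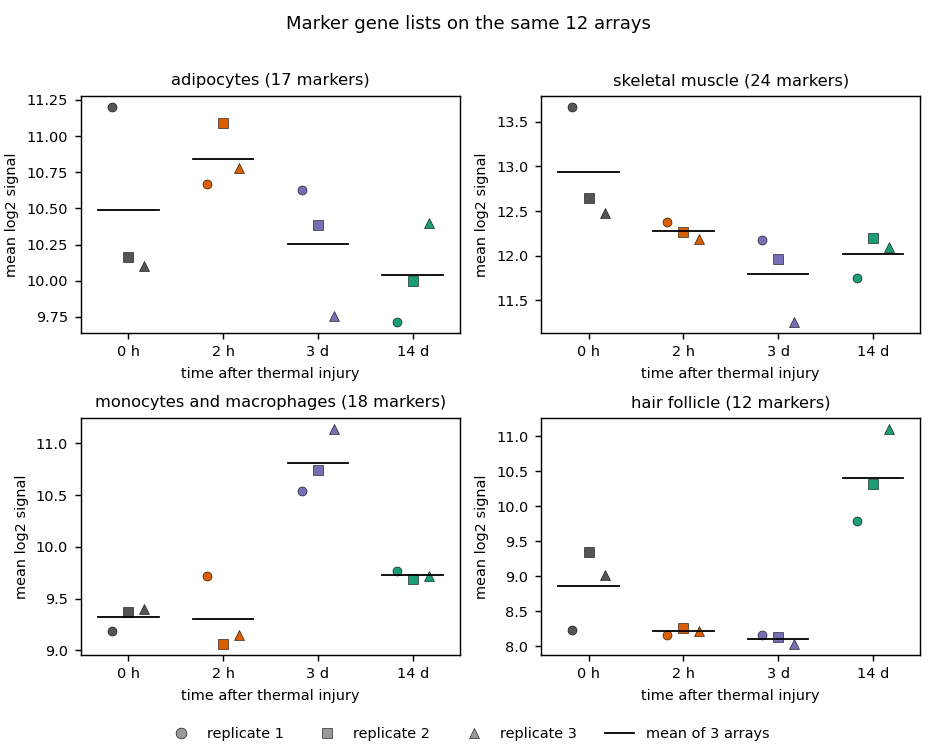
Mean log2 signal of the markers with a probe set for fat cells (17), skeletal muscle (24), monocytes and macrophages (18) and hair follicle (12), by time after injury; each point is 1 array and lines are means of 3. Fat cell markers are highest in replicate 1 at 0 hours, at 11.2, and skeletal muscle markers are lower at 3 days and 14 days.

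The genes most like each member were taken as the 3 non-member genes with the highest Pearson correlation of log2 signal over the 12 arrays. Each member was read by its brightest tested probe set, against tested probe sets that name 1 gene. Other members were left out of the lists, so likeness between members is not given. These correlations are a description over arrays that share 4 times, with no test. Among non-members, Fasn was nearest to Ldha, Reep1 and Fh1, with r of 0.929, 0.923 and 0.923. Thrsp was nearest to Cdo1, Fh1 and Pxmp2, with r of 0.961, 0.950 and 0.947, and Scd1 to Gstz1, Cdo1 and Chpt1, with 0.965, 0.949 and 0.946. Me1 was nearest to Fh1, Gucd1 and Sdhd, with 0.908, 0.899 and 0.897. Thus Fh1, the fumarase of the citric acid cycle, was on the lists of Fasn, Thrsp and Me1, and Cdo1, a cysteine dioxygenase, on those of Thrsp and Scd1. Pcx was nearest to S100a1, Tpi1 and Ndufa8, with 0.945, 0.916 and 0.910. Acly was nearest to Slc25a1 162358_i_at, Gys1 and Bin1, with 0.906, 0.906 and 0.882, and Scd2 to Ptpa, Mlf2 and Ppp2r5d, with 0.915, 0.913 and 0.880. No gene was on the lists of both Scd1 and Scd2. Without replicate 1 at 0 hours and replicate 3 at 3 days, these correlations ranged from 0.772 to 0.962 over 10 arrays.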

How the data were processed

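Total RNA of 12 mouse skin samples was measured on 1 Affymetrix array each, and samples were grouped by the time in their titles. The values used are the deposited signal intensities, 1 per probe set and array. How the authors made them (software, background correction, scaling) is not given in the sources used here; array means after trimming 2% at each end lay within 8.56% of their average, and scanner files were not used here, so background correction and slide were not varied. Gene names came from the platform's probe annotation: 6551 probe sets name 1 gene, 251 several and 446 none, and 27 are controls.

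Intensities under the 25th percentile of all arrays together, 225, were set to it before taking log2. Only those probe sets that passed the overall median, 476, on 3 or more arrays entered the fit, made with limma 3.58.1 in R 4.3.3 (lmFit and eBayes, 4 time means, 8 residual degrees of freedom); adjusted p-values are Benjamini-Hochberg over all 4216, called under 0.05. Tables and figures used Python 3.11.15, pandas 2.3.3, numpy 2.4.6 and matplotlib 3.10.9. The fit was tested on simulated data. The members and gene lists were chosen with earlier results of these data known. All member probe sets are named; of each other list, up to 4 genes with the smallest F-test p are described with values, and called genes outside that rule were named after their values were seen. In these other lists a gene with several probe sets is counted by its brightest. The members are counted by probe set, so each tested probe set of Scd1 and Scd2 counts. The labels do not say whether replicate numbers pair the samples, and the main fit did not pair them. Of 18 pairs of same-numbered arrays, 2 had deviations correlating above 0.1, which cannot decide whether same-numbered arrays were handled together. Precision is limited by 3 arrays a time.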

Additional observations from a re-analysis of the deposited data

How the results depend on the processing

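Of the 16 member changes called, 426 values under alternatives kept their sign, 343 of them called and 83 not called. Of 21 uncalled member changes, 30 of 561 alternative values changed sign. Uncalled changes against 2 hours or 3 days are among these 21 only where their unadjusted p was under 0.05, and the others were not followed. Both Scd2 falls at 2 hours were called under every alternative run. Pcx and other dim probe sets are limited by the floor. The cause of each shift was not tested, except where fewer samples or more tested probe sets enter by construction.

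Without a filter, 131, 324, 296, 195, 334 and 72 probe sets were called in the order 2 hours, 3 days and 14 days against 0 hours, 3 days and 14 days against 2 hours, and 14 days against 3 days, and 552 by the F-test. The main counts were 232, 569, 473, 362, 538, 138 and 903. The members called without a filter were 2 at 14 days against 0 hours, Acly and Pcx 162288_f_at. At 3 days against 0 hours the 1 member called was Pcx 162288_f_at (limma adjusted p = 0.0207), and Acly was not called. That Pcx probe set was not tested in the main fit, and 2 of its 3 arrays were at the floor at each of these times. Against 2 hours, 1 member was called at 3 days and 2 at 14 days. With array weights the counts were 133 at 2 hours, 1115 and 1044 for 3 days and 14 days against 2 hours, 427 for 14 days against 3 days and 1507 by the F-test, with 2 members at 3 days and 4 at 14 days against 3 days. With only the compared times fitted they were 71, 259 and 206 against 0 hours and 814 for 14 days against 2 hours, with 0 members at 3 days, 3 at 14 days, and 1 and 7 against 2 hours. With the Gapdh covariate they were 112, 2 and 2 against 0 hours, 10 and 31 against 2 hours and 236 by the F-test, with 0 members at 3 days and 14 days, 0 and 1 against 2 hours and 2 by the F-test. With the muscle covariate they were 12 at 3 days, 38 at 14 days, 194 for 3 days against 2 hours and 526 by the F-test, with 0 members at 3 days and 14 days and 2 for 14 days against 3 days. Without both replicate 1 at 0 hours and replicate 3 at 3 days, a choice made after seeing the data, they were 168, 253 and, for 3 days against 2 hours, 160, with 0 members at 3 days, 7 for 14 days against 2 hours and 3 for 14 days against 3 days. Quantile scaling, a 75th percentile filter, a trended prior and the replicate block each gave 2 members at 3 days, and the stricter filter gave 86 probe sets for 14 days against 3 days. With 1 probe set per gene, 1 member at 3 days and 2 at 14 days were called against 2 hours. With the replicate block, 167, 484 and 409 probe sets were called against 0 hours, and 3, 2 and 6 members.

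Leaving out 1 array at a time gave 93 to 391 probe sets at 2 hours, 212 to 661 at 3 days and 157 to 631 at 14 days against 0 hours. It gave 138 to 489 and 230 to 657 against 2 hours, 65 to 145 for 14 days against 3 days and 619 to 1061 by the F-test. The members called were 3 to 3, 0 to 5 and 2 to 7 against 0 hours, 0 to 2 and 2 to 6 against 2 hours, 0 to 1 for 14 days against 3 days and 4 to 7 by the F-test.

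Changes against 0 hours that changed sign were these. With the muscle covariate, Me1 at 3 days was 0.38, Thrsp 1.00 at 2 hours and 1.09 at 3 days, Pcx 0.24 and 0.84, Fasn 0.074 and 0.40, Scd1 94056_at 0.42 and 0.32, Scd1 94057_g_at 0.63 and 0.46, and Scd2 95758_at at 14 days 0.042. With the Gapdh covariate, Scd1 94056_at at 2 hours was 0.047, Scd1 94057_g_at 0.22 at 2 hours and 0.18 at 3 days, and Scd2 162077_f_at and 95758_at at 14 days 0.046 and 0.40. Without replicate 1 at 0 hours, alone or with replicate 3 at 3 days, the 2 hours changes were 0.34 for Thrsp, 0.21 for Scd1 94056_at and 0.30 for Scd1 94057_g_at. Without both, the 3 days changes were 0.18 for Thrsp, 0.17 for Pcx, 0.042 for Scd1 94056_at and 0.10 for Scd1 94057_g_at. Without replicate 1 at 2 hours, Scd1 was 0.08 and 0.20 at 2 hours, and without replicate 3 at 0 hours Scd2 95758_at was 0.029 at 14 days. With 1 array left out at a time, the 2 hours change ranged from -0.83 to 0.34 for Thrsp, -0.34 to 0.21 for Scd1 94056_at and -0.33 to 0.30 for Scd1 94057_g_at, and the 14 days change of Scd2 95758_at from -0.26 to 0.029.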
